A study of Mus musculus with 72 samples.

Results

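The comparison set blood taken 7 days after 0.25 Gy of neutrons against blood taken 7 days after 1 Gy of x-rays, using the 5 arrays labelled Neutron_0.25Gy_day7 and the 5 labelled X-ray_1Gy_day7, which are 10 of the 72 arrays of the series. Every array held RNA from the whole blood of 1 mouse, hybridized alone in a single colour. All animals were male, and the study's methods describe them as young adult C57BL/6 mice. The neutron mice were exposed in holders on a wheel that turned around an accelerator target, in a beam that also carried a smaller gamma-ray component. The x-ray mice were exposed with an orthovoltage machine. The 6 control mice of day 7 were sham-irradiated in the same holders as the neutron mice, with the beam off. Day 7 controls serve here as the unirradiated level, and the day 1 and day 3 arrays of the same exposures (6 and 6 after neutrons, 6 and 5 after x-rays) show whether a difference belonged to day 7. The doses were chosen by the study so that the neutron dose was the smaller, because neutrons do more damage per unit of dose, and the question was whether the blood responded alike to the pair.

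Ionizing radiation kills lymphocytes and the dividing precursors of the marrow within days, and B cells are among the most sensitive cells of the blood. Marrow that survives then replaces what was lost, and young red cells, called reticulocytes, enter the blood still carrying the mRNA of their last divisions, so that blood RNA contains transcripts of the red cell membrane, of heme synthesis and of mitosis although mature red cells have no nucleus. Globin mRNA was depleted before labelling, so the globin genes themselves are not informative. In whole blood, fewer cells of a type and less RNA per cell cannot be told apart. The study reported total blood counts in the normal range after exposure. It also reported no significant change in cell death or in the make-up of the white cells. Levels are given below as log2 intensity relative to the median detected probe of the same array, and differences as neutron minus x-ray on the log2 scale, so that a difference of 1 is a 2-fold higher level after neutrons and a negative one means a higher level after x-rays.

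Markers of blood cells were present in both groups: all 28 B cell genes on the array were well above background on every one of the 10 arrays, as were 28 of 30 T cell genes on each neutron array. Markers of another tissue were present too. The mean level of the list Liver genes (17 tested) was -1.12, -0.769, -1.13, 1.78 and -1.41 in neutron mice 1 to 5 and -1.42, -0.0993, 3.73, -1.24 and 5.37 in x-ray mice 1 to 5, against -2.22 to 0.0667 in the controls. Albumin (Alb), the main secreted protein of hepatocytes, was well above background on 1 of 5 neutron arrays and on 3 of 5 x-ray arrays. Of the muscle markers, Actc1 and Ckm were well above background on 0 of 5 arrays of either group, but on 3 of 6 and 2 of 6 control arrays. Myh6, a cardiac myosin heavy chain, was so on 1 of 5 neutron, 4 of 5 x-ray and 6 of 6 control arrays. Its highest level was -3.49 after neutrons, -3.66 after x-rays and 6.27 in the controls. The mean of the muscle genes tested was -2.36 to -1.05 after neutrons, -2.05 to -0.997 after x-rays and -2.04 to 1.67 in the controls. Some controls thus held more muscle transcript, and its part in the comparisons with controls was not tested. Of 16 muscle genes on the array, 3 were well above background on every neutron array and 4 on every x-ray array.

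X-ray mouse 5, which had the highest liver level, stood apart from the rest. Its array correlated with those of the other x-ray mice at 0.915 to 0.956 across the detected probes, and with those of the neutron mice at 0.894 to 0.947. The other 4 x-ray arrays correlated with each other at 0.965 to 0.985, the neutron arrays with each other at 0.964 to 0.986, and the groups with one another, without mouse 5, at 0.950 to 0.983. Results are therefore given with and without that mouse. Between 49.5% and 58.2% of spots were well above background on the neutron arrays and between 52.8% and 58.8% on the x-ray arrays (exact permutation test over arrays, 2-sided, p = 0.175). The median intensity was 15.8 to 28.0 on the neutron arrays and 26.3 to 36.0 on the x-ray arrays (exact permutation test, 2-sided, p = 0.0159, where the smallest possible p was 0.00794). No slide and no scan date held arrays of both exposures, so the exposure and the scan date cannot be told apart, and this applies to every difference below. The day 7 controls shared a slide and a scan date with neutron arrays but neither with x-ray arrays. A gap between x-ray mice and controls therefore cannot be told apart from the scan date either.

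With all 10 mice, no gene passed the study's threshold (p below 0.001 and a false discovery rate below 5%). Of 10863 genes tested with limma, 0 were called (0%), and the lowest adjusted p was 0.065. An unadjusted p below 0.001 was reached by 125 genes, 62 higher after neutrons and 63 higher after x-rays, and an unadjusted p below 0.05 by 1258 higher after neutrons (11.6%) and 959 higher after x-rays (8.83%). The random variance test, the study's own kind of test, also called 0 genes, with 2220 at an unadjusted p below 0.05. The groups did not overlap for 350 genes that were higher in every neutron mouse (3.22%) and for 316 that were higher in every x-ray mouse (2.91%). The missed threshold did not show that the exposures acted alike. The 95% interval of the difference lay within a 2-fold change either way for 7210 genes (66.4%) and within a 1.5-fold change either way for 2169 (20%), and outside those counts larger differences remained possible at this number of mice.

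Leaving out x-ray mouse 5 changed that count. With the remaining 9 mice, 112 genes passed the threshold (1.03%), 56 higher after neutrons (0.516%) and 56 higher after x-rays (0.516%). Unadjusted p-values below 0.05 numbered 1032 higher after neutrons (9.5%) and 1078 higher after x-rays (9.92%). Leaving out any of the other 9 mice gave 0 called genes. The plot of differences against p-values shows the genes with all 10 mice.

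**Figure D1:**
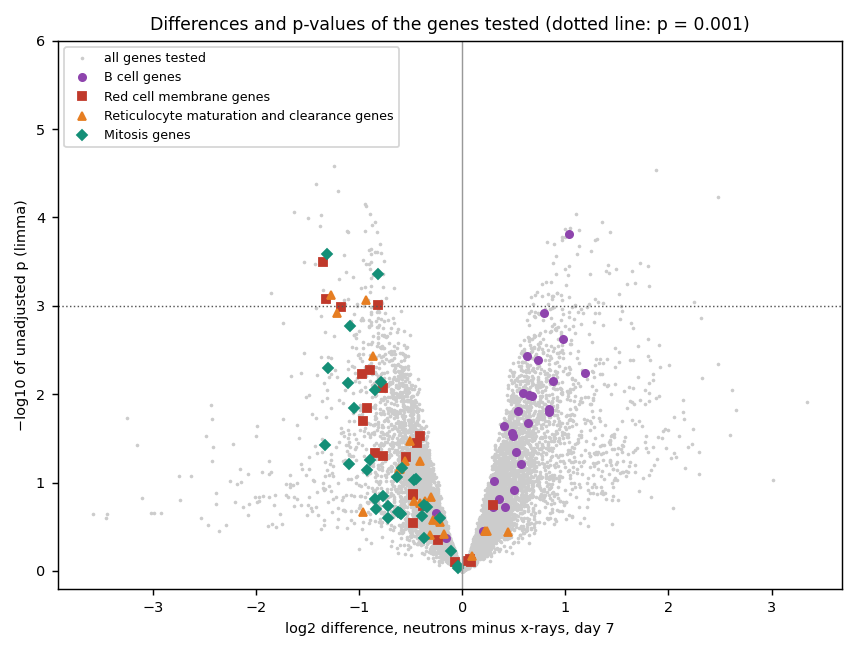
Each point is 1 of the 10863 genes tested, with the log2 difference (neutrons minus x-rays, day 7, all 10 mice) on the horizontal axis and -log10 of limma's unadjusted p on the vertical axis. The dotted line marks limma's unadjusted p of 0.001. Above it lie 125 genes on both sides of 0, none of them past the false discovery rate of 5%, and the direction of the named B cell genes turned when arrays were corrected with normexp alone.

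The genes with the lowest p-values whose groups did not overlap came from many functions. All 24 taken by this rule, 12 in each direction, had an adjusted p of 0.065, so none passed the threshold. All of them had an adjusted p of at most 0.0494 once x-ray mouse 5 was left out. They were picked by their p and by the gap between the groups on these same arrays. Neither the gap nor the lower p without mouse 5 is therefore separate support. Adora2a, a receptor for adenosine, was at 0.54, -0.23, 0.33, -1.01 and 1.41 in the neutron mice and at -2.73, -2.56, -2.25, -1.49 and -2.35 in the x-ray mice. Its lowest neutron value lay above its highest x-ray value, the difference was 2.48 ± 0.40 (SE), and the controls spanned -0.94 to 1.91, a range that held every neutron mouse except mouse 4 (-1.01). Csf1, the growth factor of monocytes and macrophages, was at 2.46, 2.47, 2.63, 2.73 and 2.80 after neutrons and at 1.41, 1.83, 1.25, 1.92 and 1.84 after x-rays. For Csf1 it was the x-ray mice that shared the range of the controls (0.95 to 2.14), and the difference was 0.97 ± 0.18 (SE). Txndc8, a thioredoxin known from developing sperm, was at 1.55 to 2.26 after neutrons and at -0.66 to 0.81 after x-rays. The controls, at -0.94 to 2.44, covered both groups for Txndc8, whose difference was 1.88 ± 0.28 (SE). Others in this direction were Myl3, a myosin light chain of heart and slow muscle (difference 1.13), and Sostdc1, a secreted inhibitor of BMP signalling (difference 1.00). On day 1 Csf1 (0.76), Txndc8 (1.54), Sostdc1 (2.32) and Myl3 were also higher after neutrons, while Adora2a was lower (-1.09). Sostdc1 and Myl3 passed the threshold on day 1 (limma adjusted p = 0.00535 each). Csf1, Txndc8, Sostdc1 and Myl3 were higher after neutrons on day 3 too, without passing it. Their day 7 difference was not shown to differ from that of day 1.

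Among the genes that were higher in every x-ray mouse, Cox6b2, an isoform of a cytochrome c oxidase subunit, was at 2.98, 2.73, 3.02, 3.26 and 3.06 after neutrons and at 4.64, 4.32, 4.13, 4.41 and 3.80 after x-rays. The controls lay at 1.77 to 2.75, so that 4 of 5 neutron mice were above all controls but below all x-ray mice, and the difference was -1.25 ± 0.18 (SE). Atf5, a transcription factor of stress responses, had a difference of -1.63 ± 0.28 (SE), with neutron mice at 1.59 to 2.51 and x-ray mice at 2.99 to 4.27. The neutron values of Atf5 covered much of the control range of 1.34 to 2.51. Mthfd2, a mitochondrial enzyme of folate metabolism, was at 0.03 to 0.61 after neutrons and at 1.19 to 2.49 after x-rays (difference -1.50 ± 0.26 SE). Psme4, an activator of the proteasome, was at -2.24 to -1.64 after neutrons and at -0.91 to -0.25 after x-rays. The neutron mice of Psme4 lay around the control range of -2.28 to -1.70. The difference of Psme4 was -1.20 with this probe but only -0.25 with its other detected probe. Smad4, the shared mediator of TGF-beta signalling, had a difference of -0.94 with its brightest varying probe, but its other probe on the array differed by 0.45 in the opposite direction, and no direction is given for it.

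**Figure D2:**
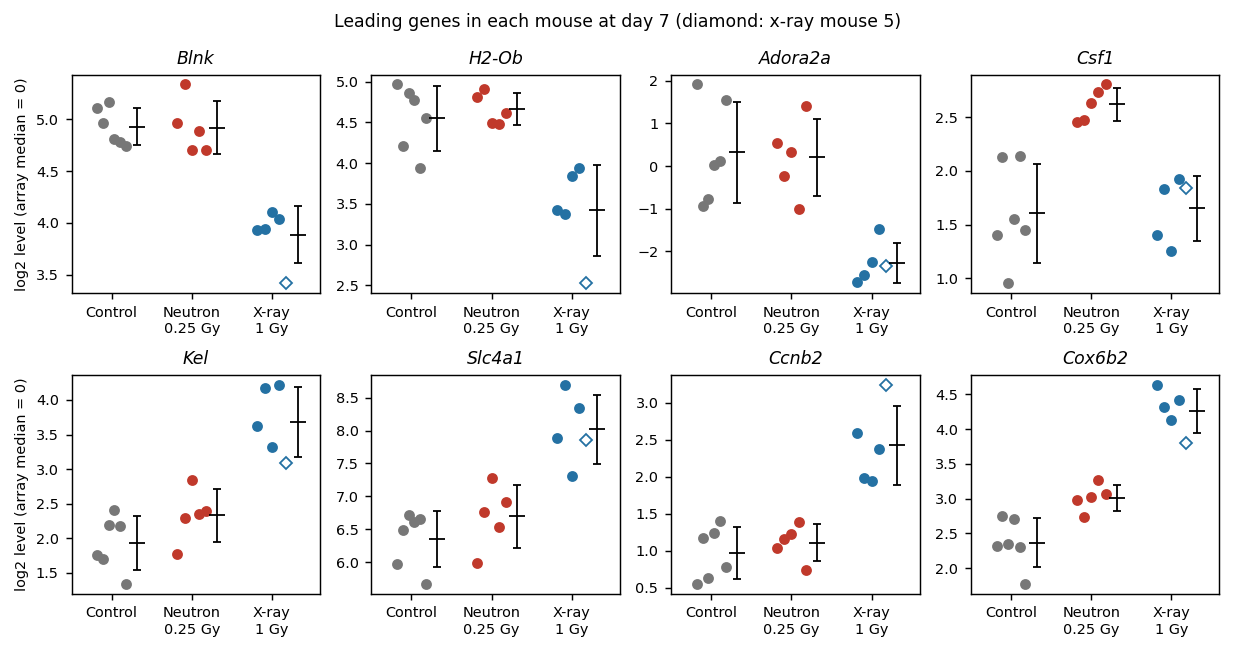
Log2 level relative to the array median for Blnk, H2-Ob, Adora2a, Csf1, Kel, Slc4a1, Ccnb2 and Cox6b2 in the 6 control, 5 neutron and 5 x-ray mice of day 7, with each point 1 mouse, the bar and whiskers mean ± SD, and the diamond x-ray mouse 5. In all 8 genes the neutron and x-ray points do not overlap, but the genes were picked by their p or by that gap on these same arrays. Mouse 5 is the lowest x-ray point for Blnk and H2-Ob and the highest for Ccnb2. For Blnk the sign turned under normexp background correction alone.

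The B cell genes stood out among the lists by their number of members at a higher level after neutrons. Of 27 tested, 25 had a difference above 0 (51.7% of all genes), with a median of 0.57 beside 0.02 over all genes, although the median was -0.17 when arrays were corrected with normexp alone and 0.53 when normexp was followed by quantile normalization. None of the 27 passed the threshold, 18 had an unadjusted p below 0.05 (11.6% of all genes in this direction), and for 12 every neutron mouse lay above every x-ray mouse (3.22% of all genes). The mean level of the B cell genes was 3.09, 3.41, 3.00, 2.95 and 2.90 in the neutron mice and 2.65, 2.64, 2.66, 2.69 and 1.90 in the x-ray mice, beside 2.98 to 3.25 in the controls. The lowest neutron mouse was thus above the highest x-ray mouse, and without x-ray mouse 5 the median of the list was 0.44 and 16 members had an unadjusted p below 0.05.

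Blnk, the adaptor that carries the signal of the B cell receptor, was at 4.96, 5.34, 4.71, 4.89 and 4.71 after neutrons and at 3.93, 3.94, 4.11, 4.03 and 3.41 after x-rays, with controls at 4.74 to 5.16. Blnk was among the genes picked because the groups did not overlap, and its neutron mice lay around the control range. Its difference was 1.03 ± 0.19 (SE; limma adjusted p = 0.065), a 2.05-fold higher level after neutrons, and 0.92 with an adjusted p of 0.0364 without x-ray mouse 5, but -0.09 with normexp alone. Pou2af1, a coactivator needed for antibody responses, was at 3.66 to 4.23 after neutrons and at 2.73 to 3.32 after x-rays (difference 0.79 ± 0.19 SE), and at -0.26 with normexp alone. Cxcr5, the chemokine receptor that brings B cells into follicles, was at 3.07 to 3.37 after neutrons and at 2.08 to 2.87 after x-rays. Its difference was 0.63 ± 0.17 (SE), turning to -0.39 with normexp alone, and the neutron mice of Cxcr5 were all below the lowest control (3.38). Cd79a, a chain of the B cell receptor complex, had a difference of 0.68, and Ms4a1, which encodes CD20, one of 0.52. Bcl11a, a transcription factor of B cells that also silences embryonic and fetal globin genes, was counted with the erythroid factors and had a difference of 0.80 ± 0.22 (SE) in the direction of the B cell genes.

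The MHC class II genes, which B cells share with monocytes and dendritic cells, had the same sign in all 10 members tested, with a median of 0.49 that became -0.44 with normexp alone and 0.41 with normexp and quantile normalization. None passed the threshold and 5 had an unadjusted p below 0.05. Without x-ray mouse 5 the median was 0.30 and 2 members had an unadjusted p below 0.05. H2-Ob, a chain of the molecule that tunes peptide loading in B cells, was at 4.81, 4.91, 4.49, 4.48 and 4.62 after neutrons and at 3.42, 3.37, 3.85, 3.94 and 2.52 after x-rays. No x-ray mouse reached the lowest neutron mouse, the controls covered 3.94 to 4.96, and the difference was 1.24 ± 0.25 (SE; limma adjusted p = 0.0684). Without x-ray mouse 5 the difference of H2-Ob was 1.02 with an adjusted p of 0.0351. H2-Eb1, a classical class II beta chain, was at 7.40 to 7.87 after neutrons and at 6.30 to 7.25 after x-rays (0.67 ± 0.20 SE), again with the sign turned by normexp alone (-0.35). Cd74, the invariant chain that all class II molecules need, differed by 0.10, and Ciita, the master regulator of the class II genes, by 0.02.

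Other leukocyte groups had medians nearer 0. Of 29 T cell genes tested, 21 had a higher level after x-rays (median -0.25), 5 with an unadjusted p below 0.05 in that direction and 1 in the other. Zap70, a kinase of the T cell receptor, was at 2.51 to 3.10 after neutrons and at 3.19 to 3.70 after x-rays (difference -0.52 ± 0.17 SE), and the T cell median was -0.15 without x-ray mouse 5 and 0.05 when the 3 arrays with the most liver transcript (neutron mouse 4 and x-ray mice 3 and 5) were left out. Monocyte genes had a median of -0.02 with 0 of 21 at an unadjusted p below 0.05, neutrophil granule genes a median of -0.03 over 16 members, and platelet and megakaryocyte genes a median of 0.12 with 0 of 26 at that p. The natural killer and cytotoxic genes had a median of 0.15 and interferon-stimulated genes one of -0.05. Without x-ray mouse 5 these medians were all below 0, at -0.23 for monocyte genes (2 at an unadjusted p below 0.05), -0.19 for neutrophil granule genes, -0.05 for platelet and megakaryocyte genes, -0.04 for natural killer and cytotoxic genes and -0.21 for interferon-stimulated genes, with 0 called in these 5 lists. For the ribosomal protein genes the interval of the difference lay within a 2-fold change for all 36 tested, with a median of 0.00.

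**Figure D3:**
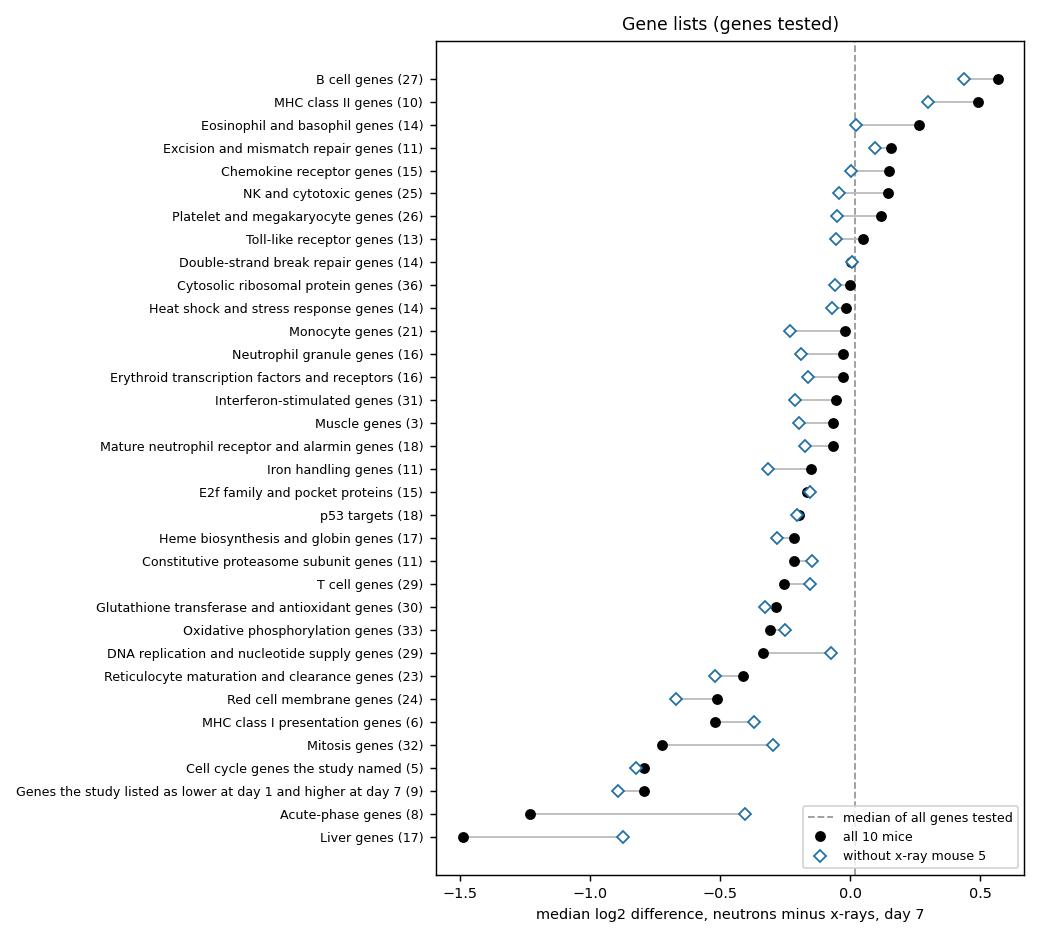
Median log2 difference (neutrons minus x-rays, day 7) of the tested members of each of 34 gene lists, with all 10 mice and without x-ray mouse 5; the dashed line is the median of all genes (0.02). The B cell (0.57) and MHC class II (0.49) medians lie to the right and turned negative with normexp alone, while the red cell membrane (-0.51), mitosis (-0.72) and liver (-1.49) medians lie to the left; the acute-phase (-1.23 to -0.41), liver (-1.49 to -0.88) and mitosis (-0.72 to -0.30) points move most without mouse 5.

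Among the transcripts of young red cells, those of the membrane had the most members at a low p in the x-ray direction. Of 24 red cell membrane genes tested, 20 had a difference below 0 (48.3% of all genes), the median was -0.51, 13 had an unadjusted p below 0.05 (8.83% of all genes in this direction), and for 5 every x-ray mouse lay above every neutron mouse (2.91% of all genes). None passed the threshold with all 10 mice. The median had this sign under every centring and background correction tried (-0.40 with normexp and quantile normalization, -1.14 with normexp alone). Normexp alone gave the brightest of 5 equal classes of all genes a median of -1.07 and the dimmest one of 1.14. Spike-in centring lowered the median of all genes as well. The same sign under those settings is thus no separate support. Without x-ray mouse 5 the median of the list was -0.67, and 13 members again had an unadjusted p below 0.05. Per mouse, the mean level of the red cell membrane genes was 1.29, 1.71, 2.07, 1.67 and 1.92 after neutrons and 2.23, 2.56, 2.03, 2.85 and 1.86 after x-rays, beside 0.70 to 1.59 in the controls. X-ray mice 3 and 5 were thus within the range of the neutron mice, and 4 of 5 neutron mice were above all controls.

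Kel, the Kell blood group endopeptidase of the red cell surface, was at 1.78, 2.29, 2.84, 2.35 and 2.39 after neutrons and at 3.62, 4.18, 3.31, 4.22 and 3.08 after x-rays, with controls at 1.34 to 2.41. Every x-ray mouse was above every neutron mouse and every control. The difference was -1.35 ± 0.27 (SE; limma adjusted p = 0.0666), 2.56-fold higher after x-rays, and -1.50 ± 0.25 without x-ray mouse 5, when it passed the threshold (adjusted p = 0.0351). Xk, the membrane protein to which Kell is bound, differed by -0.82 with all mice and by -0.96 without mouse 5, also at an adjusted p of 0.0351. Slc4a1, the band 3 anion exchanger and the main protein of the red cell membrane, was at 5.99, 6.76, 7.28, 6.54 and 6.92 after neutrons and at 7.88, 8.70, 7.31, 8.34 and 7.86 after x-rays. Its highest neutron mouse and lowest x-ray mouse were 7.28 and 7.31, so the groups were barely apart, and the difference was -1.32 ± 0.29 (SE; adjusted p = 0.083). Rhd, of the Rhesus blood group, differed by -1.18, Ank1, the ankyrin that ties band 3 to the skeleton, by -0.97, and Epb42, a further protein of that link, by -0.96.

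The region before the start of Kel is printed because Kel led this group and because GATA1, the main transcription factor of red cell precursors, binds GATA motifs. The 250 bases before the RefSeq start of Kel (GRCm38.p6, chr6:41704326-41704575, minus strand, 5′ to 3′) have in capitals each match of the letters AGATAA or TGATAA, read on both strands.
Kel: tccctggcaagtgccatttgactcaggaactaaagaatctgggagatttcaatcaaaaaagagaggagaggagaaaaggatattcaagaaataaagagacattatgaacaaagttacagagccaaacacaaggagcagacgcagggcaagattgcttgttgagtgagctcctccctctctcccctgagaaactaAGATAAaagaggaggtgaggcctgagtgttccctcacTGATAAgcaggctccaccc
Of the windows of this length before the starts of red cell membrane genes that were tested, 8 of 18 held such a match (44.4%), against 16.6% of all 32851 windows; the window of Kel held 2 matches. The letters CCACACCC, a motif of the factor KLF1, were in 1 of the 18 windows (5.56%; 3.2% of all windows). A match is a description of the letters and not of a binding site.

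Genes by which reticulocytes mature and clear their contents had a median of -0.41 over 23 tested, with 19 below 0 and 5 at an unadjusted p below 0.05, and a median of -0.52 with 10 at that p without x-ray mouse 5. The sign was the same under every centring and background correction tried (-1.37 to -0.32). Normexp alone and spike-in centring also shifted genes outside the list, as given for the membrane genes, so their sign is no separate support. Ranbp10, a Ran-binding protein counted in this list, was at 3.01, 3.84, 3.99, 3.24 and 3.61 after neutrons and at 4.65, 5.37, 4.11, 5.31 and 4.60 after x-rays (difference -1.27 ± 0.28 SE; limma adjusted p = 0.083). Ube2o, the enzyme that marks surplus proteins of the reticulocyte for destruction, was at 8.30, 8.74, 8.79, 8.47 and 8.57 after neutrons and at 9.79, 9.99, 8.94, 9.48 and 9.35 after x-rays (difference -0.94 ± 0.21 SE; adjusted p = 0.083). For both genes the neutron and x-ray mice were apart. The controls of Ranbp10 (2.42 to 3.21) overlapped the lowest neutron mouse, and those of Ube2o (7.36 to 8.04) lay below every irradiated mouse. Wdr26, a subunit of a ubiquitin ligase of maturing red cells, was at 3.87 to 5.13 after neutrons and at 5.27 to 6.34 after x-rays (difference -1.22 ± 0.29 SE). Heme biosynthesis and globin genes had a smaller median of -0.22 over 17 tested, 5 with an unadjusted p below 0.05. Cpox, an enzyme of heme synthesis, was at -0.18 to 0.73 after neutrons and at 1.17 to 2.26 after x-rays, a difference of -1.14 ± 0.26 (SE). The other red cell lists lay nearer 0: iron handling genes had a median of -0.15 over 11 tested, with 2 above 0, and erythroid transcription factors and receptors one of -0.03 over 16, with 7 above 0 and 0 called in either list.

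**Figure D4:**
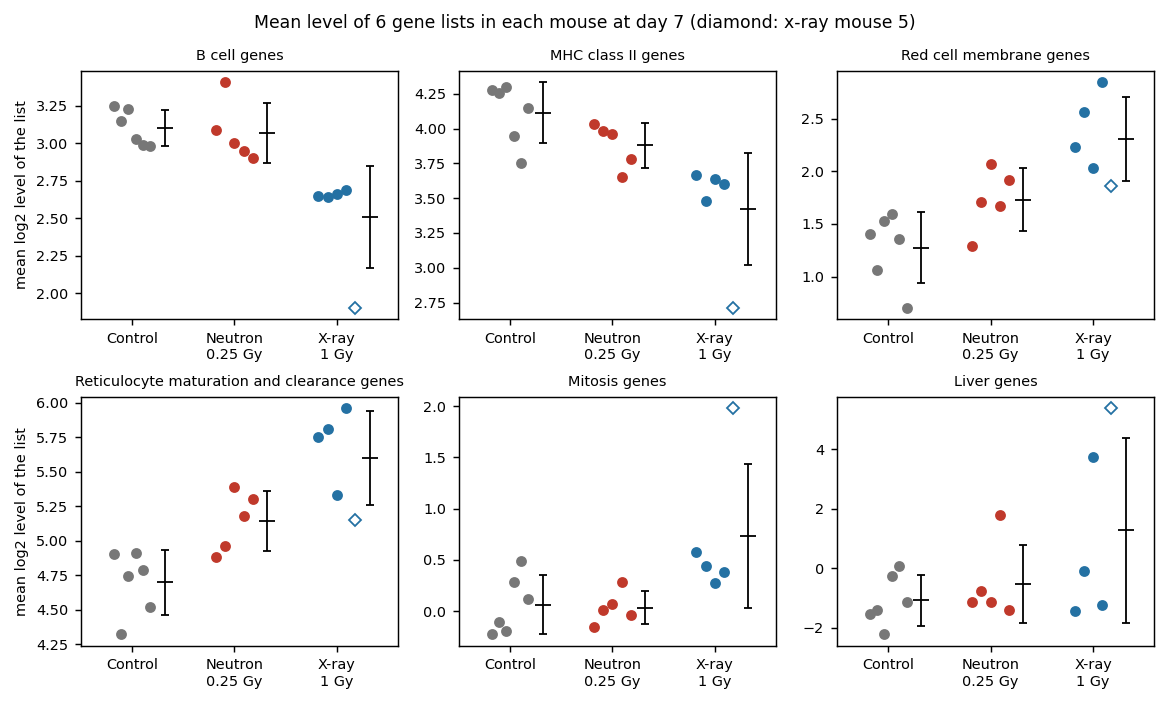
Mean log2 level of the tested members of 6 gene lists in each control, neutron and x-ray mouse of day 7, with mean ± SD and x-ray mouse 5 as a diamond. The B cell genes separate the neutron mice (2.90 to 3.41) from the x-ray mice (1.90 to 2.69), an order that turned with normexp alone, and the red cell membrane genes run from controls (0.70 to 1.59) over neutron mice (1.29 to 2.07) to x-ray mice (1.86 to 2.85), with overlap between neighbours.

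Mitosis genes had a difference below 0 in all 32 tested, with a median of -0.72, but much of this size came with 1 mouse. Their mean level was -0.154, 0.0111, 0.0658, 0.285 and -0.036 in the neutron mice and 0.579, 0.446, 0.275, 0.383 and 1.98 in the x-ray mice. X-ray mouse 5 was far above the other 4, of which 1, mouse 3, lay within the neutron range. Without mouse 5 the median was -0.30. Under all centrings and background corrections the median stayed below 0 (-0.99 to -0.19). Normexp alone and spike-in centring also shifted genes outside the list, so their sign is no separate support. Of the 32 genes 0 passed the threshold with all mice, 9 had an unadjusted p below 0.05 (8.83% of all genes in this direction), and 12 had one without mouse 5. DNA replication genes depended on mouse 5 as well, since their median was -0.33 over 29 tested with all mice and -0.07 without it.

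Ccnb2, a B-type cyclin that drives entry into mitosis, was at 1.04, 1.16, 1.23, 1.40 and 0.74 after neutrons and at 2.59, 1.98, 1.94, 2.37 and 3.24 after x-rays, with controls at 0.56 to 1.40. The neutron mice had the levels of the controls, and each x-ray mouse lay above both. The difference was -1.31 ± 0.25 (SE; limma adjusted p = 0.065), and -1.11 with an adjusted p of 0.0351 without mouse 5. Ccna2, the cyclin of S phase and early mitosis, was at 1.80, 2.10, 2.14, 2.00 and 2.07 after neutrons and at 2.83, 3.07, 2.41, 3.07 and 2.81 after x-rays (difference -0.82 ± 0.17 SE; adjusted p = 0.0684). Its x-ray mouse 5 was no outlier, and without it the difference was -0.82 with an adjusted p of 0.0573. Ube2c, the ubiquitin-conjugating enzyme of the anaphase-promoting complex, was at 5.88, 6.29, 6.73, 6.34 and 6.69 after neutrons and at 7.52, 7.40, 6.87, 7.53 and 6.56 after x-rays. Here the groups overlapped through mouse 5, which had the lowest x-ray value, and the difference was -0.79 ± 0.24 (SE; adjusted p = 0.13).

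Windows before the starts of Ccnb2 (GRCm38.p6, chr9:70421555-70421804, minus strand) and Ube2c (chr2:164769679-164769928, plus strand) are printed as examples of mitosis promoters, 5′ to 3′, with the letters CCAAT, bound by NF-Y, and TTTGAA, the core of the cell cycle homology region, in capitals on either strand.
Ccnb2: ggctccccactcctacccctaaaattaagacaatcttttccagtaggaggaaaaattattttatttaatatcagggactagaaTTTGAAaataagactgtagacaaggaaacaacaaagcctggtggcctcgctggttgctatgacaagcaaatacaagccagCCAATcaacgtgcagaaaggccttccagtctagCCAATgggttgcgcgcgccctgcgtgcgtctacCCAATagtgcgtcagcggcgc
Ube2c: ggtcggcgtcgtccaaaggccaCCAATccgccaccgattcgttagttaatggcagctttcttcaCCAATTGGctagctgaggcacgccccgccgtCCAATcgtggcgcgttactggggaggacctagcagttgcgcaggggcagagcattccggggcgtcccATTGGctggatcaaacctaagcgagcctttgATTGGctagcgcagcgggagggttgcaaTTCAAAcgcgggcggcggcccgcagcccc
The window of Ccnb2 held 4 such matches and that of Ube2c 7, of which a pair on opposite strands overlaps. Of the 30 windows of mitosis genes, 24 held CCAAT (80%) and 11 held TTTGAA (36.7%), against 33.8% and 16% of all windows. CCAAT was not particular to this list. It was in 7 of 8 windows of MHC class II genes (87.5%) and 8 of 18 of red cell membrane genes (44.4%), but in 6 of 25 of B cell genes (24%). The E2F letters TTTCCCGC or TTTGGCGC were in 1 of the 30 (3.33%; 1.3% of all windows).

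The study named 5 cell cycle genes and 9 genes that it had selected on arrays of this series as lower at day 1 and higher at day 7 after the larger exposures, so neither list is independent evidence of a direction. All 5 cell cycle genes were at a higher level after x-rays than after neutrons, with a median of -0.79, and 3 had an unadjusted p below 0.05. All 9 of the other list had the same sign (median -0.79), 8 with an unadjusted p below 0.05, and none of either list passed the threshold. Without x-ray mouse 5 the medians were -0.82 and -0.89. Fzr1, an activator of the anaphase-promoting complex, was at 2.71 to 3.83 after neutrons and at 3.83 to 4.84 after x-rays (difference -0.84 ± 0.27 SE).

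Genes of oxidative phosphorylation had small differences, most of them below 0. Of 33 tested, 0 passed the threshold, 29 had a difference below 0 and 4 one above it (up to 0.23). Of the 29, 13 had an unadjusted p below 0.05 (8.83% of all genes) and 7 were without overlap of the groups (2.91%). The median was -0.31, and each of the 33 intervals lay within a 2-fold change. Cox4i1, a subunit of cytochrome c oxidase, was at 5.11, 5.03, 4.79, 5.11 and 5.11 after neutrons and at 5.71, 5.54, 5.27, 5.44 and 5.78 after x-rays, a difference of -0.52 ± 0.15 (SE). The controls of Cox4i1 ran from 5.01 to 6.29 and covered the x-ray mice and every neutron mouse except mouse 3 (4.79). Of 30 glutathione transferase and antioxidant genes, 27 had a difference below 0 (median -0.28), 7 with an unadjusted p below 0.05 in that direction and 1 in the other. Gclm, the modifier subunit of the enzyme that starts glutathione synthesis, was at 2.21 to 3.70 after neutrons and at 3.36 to 4.57 after x-rays (-1.01 ± 0.31 SE), so its groups overlapped. Targets of p53, the transcription factor that radiation activates, had a median of -0.20 over 18 tested, with 1 at an unadjusted p below 0.05 in the neutron direction and 4 in the x-ray direction. Double-strand break repair genes had a median of 0.00 over 14 tested. Of 19 MHC class I presentation genes that were detected, 6 passed the filters, with a median of -0.52, 2 of the 6 above 0 (up to 0.66), 0 called, and 3 at an unadjusted p below 0.05 in the x-ray direction and 1 in the other. The 8 acute-phase genes tested had a median of -1.23, or -0.41 without x-ray mouse 5, with 0 called and 1 at an unadjusted p below 0.05. Among the lists not described here, the medians lay between -0.22 for the proteasome and 0.27 for eosinophils and basophils. Liver genes, given above per mouse, had a median of -1.49 over 17, and with their mean level as a covariate, chosen after the data were seen, 0 genes were called, as without it.

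Each exposure was also set against the 6 unirradiated mice of day 7. These comparisons share their controls, so their values are given side by side and no agreement is read from them. The controls were scanned on the date of the neutron arrays and on no date of the x-ray arrays. X-ray exposure and scan date thus cannot be told apart in the x-ray comparison, and the counts of the comparisons are not on an equal footing. After neutrons 3 genes were called (0.0276%), all higher: F9, coagulation factor IX made by the liver (difference from controls 1.18), A4galt, which makes the P blood group antigen (1.21), and B230398E01Rik (2.22). That count was not stable, since it ran from 0 to 311 when single mice were left out, with 311 without control mouse 2, 197 without neutron mouse 1 and 30 without control mouse 1. It was also 0 with slide as a fixed block. After x-rays 435 genes were called (4%), 358 higher (3.3%) and 77 lower (0.709%), with 261 to 508 when single mice were left out, the lowest without x-ray mouse 2. Centring on the spike-in probes instead turned the split of the x-ray calls to 14 higher of 696 and that of the neutron calls to 2 higher of 1940, and it lowered the median difference of all genes by 0.71 and 0.96. The levels relative to controls below are therefore relative to the median gene. At the same threshold the study itself reported more genes for both comparisons, and most of its genes were lower than in controls. The counts and directions given here thus differ from those of the study, and the reason was not tested.

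Against controls, the B cell genes had a median of -0.10 after neutrons with 0 called, and of -0.69 after x-rays with 7 of 27 called lower (0.709% of all genes) and 1 called higher. Blnk was at -0.01 after neutrons and at -1.04 after x-rays (limma adjusted p = 0.00406). The MHC class II medians were -0.32 and -0.67, with 2 of 10 called lower after x-rays. Red cell membrane genes had medians of 0.46 after neutrons with 0 called and of 1.2 after x-rays with 14 of 24 called higher (3.3% of all genes). Kel differed from controls by 0.40 after neutrons and by 1.75 after x-rays (adjusted p = 0.00322), and Slc4a1 by 0.34 and 1.66 (adjusted p = 0.00547). Reticulocyte maturation genes had medians of 0.57 and 0.93, with 7 of 23 called after x-rays, and mitosis genes medians of -0.07 and 0.49, with 5 of 32 called. Heme biosynthesis and globin genes had medians of 0.58 and 0.65. A call after x-rays beside no call after neutrons is not a difference between the exposures, whose direct test is the one given above, with 0 genes called.

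The difference between the exposures was not the same on day 1 as on day 7. On day 1 the same direct comparison called 538 genes, 523 of them higher after neutrons, and the red cell membrane genes had a median of 1.21. By day 3 it called 0 genes (1208 at an unadjusted p below 0.05) and their median was 0.00, and by day 7 it was -0.51, as given above. Tested as an interaction (the day 7 difference minus that of day 1), 311 genes were called (2.86%), 20 with a higher value at day 7 (0.184%) and 291 with a lower one (2.68%). The count was 191 to 437 when single mice were left out (191 without x-ray mouse 2 of day 7) and 335 without x-ray mouse 5, but 61 with the scan date as a random block, 158 with centring on the spike-in probes and 519 with the liver level as a covariate. Liver transcript was much higher on day 1 than on day 7: the mean of the 17 liver genes was 2.13 to 9.27 in the neutron mice and 3.32 to 7.58 in the x-ray mice of day 1. Their part in the interaction was not tested beyond that covariate.

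Called lower in the interaction were 12 of 24 red cell membrane genes, 10 of 23 reticulocyte maturation genes, 3 of 17 heme biosynthesis and globin genes and 4 of 32 mitosis genes, beside 2.68% of all genes. Of the lists that the study had selected on these arrays, 4 of 5 cell cycle genes and 8 of 9 of the other list were called, which is no independent evidence. Slc4a1 was the clearest case. Its level was 4.65, 5.48 and 6.78 (lowest, median and highest of 6) after neutrons and 2.38, 3.42 and 4.51 after x-rays on day 1, when the controls were at 5.37 to 7.08. On day 1 every x-ray mouse was thus below every control and the neutron mice overlapped the controls, while on day 7 the x-ray mice were above every control. The difference was 2.10 on day 1, -0.19 on day 3 and -1.32 on day 7, and the interaction was -3.42 ± 0.56 (SE; limma adjusted p = 0.00451), or -3.37 with the scan date as a random block (adjusted p = 0.03).

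Ank1 and Kel followed the same course, with interactions of -3.33 and -3.05, and so did Epb42 (-3.05). With the scan date as a block Ank1 and Kel were still called and Epb42 was not (adjusted p = 0.0599). Among the clearance genes Ube2o went from 1.35 on day 1 over 0.05 on day 3 to -0.94 on day 7 (interaction -2.29). Wdr26 went from 0.62 on day 1 over 1.00 on day 3 to -1.22 on day 7 (interaction -1.84; adjusted p = 0.0138, or 0.0604 when scan date was a random block). Ube2c, at 1.54 on day 1 and -0.79 on day 7, had an interaction of -2.33, and Ccna2, at 1.18 and -0.82, one of -2. Ahsp, the chaperone of free alpha globin, had an interaction of -2.49, and Sox6, a repressor of embryonic globin, one of -3.25, which turned to 0.21 with normexp alone. Of the windows before the starts of those red cell membrane genes that were called, 6 of 10 (from 8 genes) held the GATA letters printed above for Kel (60%), against 16.6% of all windows, while 0 of 8 windows of the called reticulocyte genes did. The letters CCAAT were in 7 of the same 10 windows (70%), against 33.8% of all windows.

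The B cell genes took another course. Their median difference was -0.03 on day 1, 0.00 on day 3 and 0.57 on day 7, and the interaction of day 7 with day 1 had a median of 0.65, with 0 of 27 called higher and 1, Cd24a, called lower (-1.48). Cd24a is a surface protein that red cell precursors carry as well as B cells. Blnk differed by -0.10 on day 1, -0.26 on day 3 and 1.03 on day 7, and its interaction of 1.14 ± 0.48 (SE) did not pass the threshold (limma adjusted p = 0.198). A day 7 pattern of the B cell genes was thus not shown to differ from that of day 1. Adora2a was among the 20 genes called higher, with an interaction of 3.57 ± 0.81 (SE; adjusted p = 0.018).

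Tested against day 3, the day 7 difference called 0 genes with limma (1815 at an unadjusted p below 0.05). The count was 95 without x-ray mouse 4 of day 3, 237 with centring on the spike-in probes and 390 with array weights. Red cell membrane genes had a median of -0.58 in that contrast and B cell genes one of 0.61, while the liver genes had one of -4.96, with 16 of 17 at an unadjusted p below 0.05 and below 0 (8.15% of all genes).

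**Figure D5:**
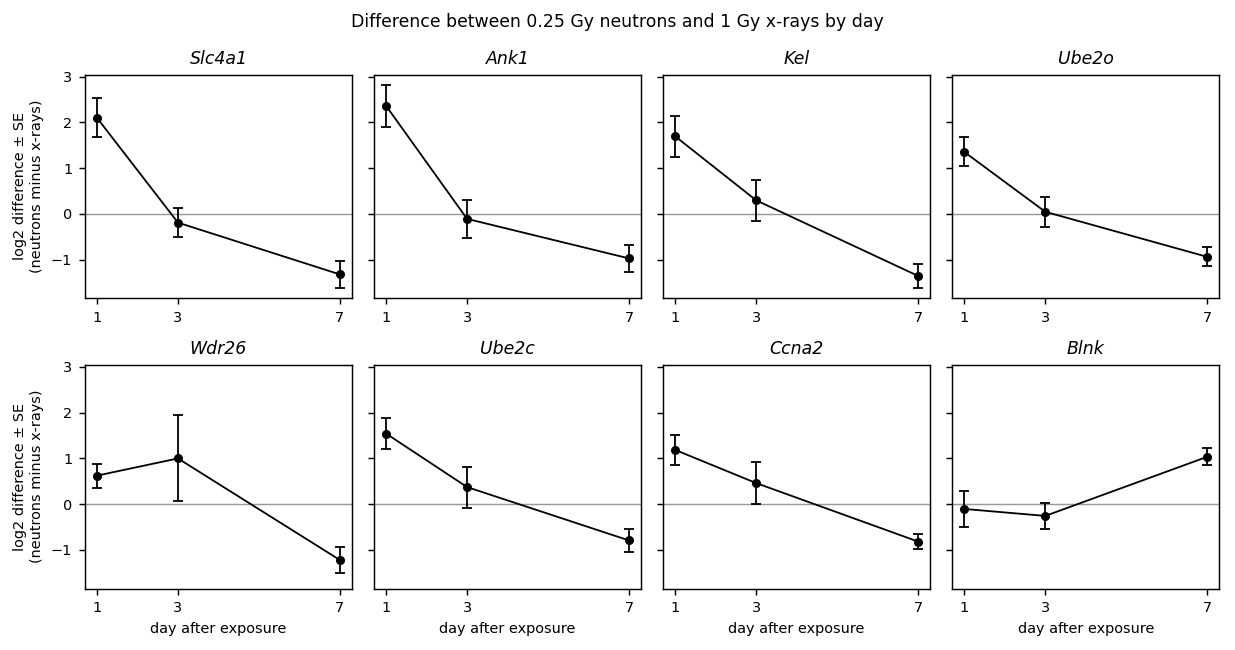
Log2 difference between 0.25 Gy neutrons and 1 Gy x-rays (points, with SE) on days 1, 3 and 7 for Slc4a1, Ank1, Kel, Ube2o, Wdr26, Ube2c, Ccna2 and Blnk. The 7 red cell, reticulocyte and mitosis genes lie above 0 on day 1 and below 0 on day 7, while Blnk goes from -0.10 on day 1 to 1.03 on day 7, a sign that turned with normexp alone; the lines join separate mice.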

How the data were processed

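The authors hybridized globin-depleted blood RNA of single mice to Agilent mouse 4x44K v2 arrays in 1 colour and extracted the images with Feature Extraction 12.0.2. The deposited files hold, per spot, a background-subtracted intensity (gProcessedSignal) and flags, and these values came from the scanner files rather than from the table of normalized values. Control spots were left out, and log2 intensities were set relative to the median detected probe of the array. With the filters of the study's methods, probes flagged on 25% or more of the 56 arrays of days 1 and 7 were removed (19808 left), and a probe was kept only where at least 20% of those arrays lay 1.5-fold or more away from its own median (12556 left), and the brightest probe stood for a gene (10863 genes). The study's methods also describe averaging of probes, which was not done here, and they state a larger final number of features. A probe not clearly above background on an array keeps its small value there, so differences of dim genes are less certain than those of bright ones, and the number of mice limits the precision. 

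Groups came from the sample titles. Differences between 2 groups were tested with limma 3.58.1 in R 4.3.3 on those groups alone, two-sided. The interactions of day 7 with day 1 or day 3 were fitted on the neutron and x-ray arrays of both days together. A call needed both p below 0.001 and an FDR (Benjamini-Hochberg) under 5%. Nothing in the labels pairs mice of the same number: deviations of same-numbered mice from their group means correlated at -0.558 to 0.0849, so the numbers were not used as a block. The 34 gene lists, the comparison and the rule for named genes were chosen with earlier results of these data known. The rule took, in each direction, the called genes with the largest difference and, where fewer than 12 were called, those with the lowest p whose groups did not overlap and whose probe was well above background on every array of the higher group, then the leading genes of each list (the called ones, otherwise the 2 with the lowest p), and all genes of the 2 lists of the study; further list members (Rhd, Xk, Ank1, Epb42, Cd79a, Ms4a1, Cd74 and Ciita), the 3 genes called after neutrons against controls and Adora2a in the interaction were named after their values were seen. Some genes that met the rule are not reported here. The fits were tested on simulated data. Promoter windows came from RefSeq (GRCm38.p6). Alternatives were other centrings, background corrections, filters, groups in the fit, array weights, slide, scan date and replicate number as blocks, the random variance test and leaving out each mouse. Alternatives on liver transcript, on x-ray mouse 5 with all day 7 groups, and normexp followed by quantile normalization were chosen after seeing the data.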

Additional observations from a re-analysis of the deposited data

Results flagged for a closer look

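In a group of 5 mice, a value was singled out when its gap to the nearest other value was unusually large for the range of the group. Chance singles out about 1 in 20 groups, and 27 of 300 groups were singled out here. Of these, 13 came from x-ray mouse 5 and 2 from neutron mouse 4.

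X-ray mouse 5 had the lowest Blnk (3.41 beside a next value of 3.93), Camp (-0.315 beside 0.449) and Fcer1a (-2.57 beside -1.61), and the highest Mcm5 (2.12 beside 0.57). Camp encodes an antimicrobial peptide of neutrophil granules, Fcer1a a chain of the IgE receptor of basophils, and Mcm5 a subunit of the replication helicase. In mean levels per mouse, it had the lowest B cell genes (1.90), neutrophil granule genes (1.30), monocyte genes (1.45), interferon-stimulated genes (0.458), MHC class II genes (2.71), Toll-like receptor genes (0.836) and chemokine receptor genes (0.392). It had the highest mitosis genes (1.98) and DNA replication genes (1.73). The same mouse had the highest mean liver level of the 10 (5.37). The part of liver transcript in these values was not tested.

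Single genes were also singled out in other mice. Among the neutron mice, mouse 1 was the lowest for Sostdc1 (-0.438), Cpox (-0.183), Ifit1 (-0.195) and Ahsp (5.2 beside 6.54), mouse 2 the lowest for Gabrd (-3.33), mouse 3 the lowest for Rps15 (6.29) and Cox4i1 (4.79), and mouse 4 the highest for Camp (0.468). Among the x-ray mice, mouse 2 was the highest for Psme4 (-0.247) and mouse 4 the lowest for Jun (-0.773). In mean levels of lists, neutron mouse 2 was the lowest for platelet and megakaryocyte genes (2.59 beside 3.66), neutron mouse 4 the highest for liver genes (1.78), neutron mouse 5 the highest for MHC class I presentation genes (2.41) and x-ray mouse 3 the highest for that list (2.76).

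The difference between the exposures differed between day 7 and day 1 for 311 genes in limma's interaction test. Among the list members named there, the day 7 difference minus the day 1 difference was -3.42 for Slc4a1, -3.33 for Ank1, -3.05 for Kel, -3.05 for Epb42 and -1.98 for Icam4, all of the red cell membrane. Among heme, iron and erythroid genes it was -2.49 for Ahsp, -2.11 for Slc25a37, -1.45 for Fech, -1.65 for Ncoa4, -3.25 for Sox6 and -1.61 for Lmo2. Reticulocyte maturation genes had values of -2.28 for Ranbp10, -2.29 for Ube2o, -1.47 for Rnf123, -2.26 for Rnf10, -1.84 for Wdr26 and -1.69 for Usp15. The cell cycle genes had values of -2.27 for Nusap1, -2.33 for Ube2c, -2 for Ccna2, -1.72 for Fzr1 and -1.74 for E2f2. Of the other genes, the values were -1.48 for Cd24a, -2 for Cd36, -1.73 for Oas3, -1.47 for Mgst3, -1.76 for Mta3, -2.33 for Slc25a51, -1.41 for Anp32e and -1.41 for Mtmr3. With the scan date as a random block, 17 of the 36 values tested for this contrast no longer passed the threshold. Exposure and scan date cannot be told apart.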

How the results depend on the processing

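The count of 0 called genes with all 10 mice was also given by the other centrings, by spike-in centring, with the detection and 1.5-fold filters both dropped (31131 genes tested), with dim spots missing, by the random variance test, with slide or scan date as a random block (correlations 0.207 and -0.00632) and with the liver-high arrays left out or liver as a covariate. It was 38 without the 1.5-fold filter, 44 for probes well above background on 5 or more arrays, 80 with all day 7 groups in the fit, 312 with array weights, 4645 with normexp (3152 higher after neutrons), 59 with normexp and quantile normalization and 18 without x-ray mouse 5 in a fit of all day 7 groups, and it was 0 to 112 with single mice left out. Normexp left unequal spreads, with interquartile ranges of 1.21 to 2.22 on the neutron arrays and 2.67 to 3.35 on the x-ray arrays, and its median difference ran from 1.14 in the dimmest to -1.07 in the brightest of 5 equal classes of genes. Spike-in centring moved the median difference of all genes from 0.0184 to -0.253.

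The 125 genes at p below 0.001 became 27 with spike-in centring, 4645 with normexp, 198 without the 1.5-fold filter, 212 for probes above background on 5 or more arrays, 312 with array weights, 44 with slide as a random block and 60 to 169 with single mice left out. Of the 125, 49.6% were higher after neutrons, against 33.6% with centring on all probes, 3.7% with spike-in centring, 30.4% with dim spots missing, 65.7% without filters and 67.9% with normexp. The 7210 genes with an interval within a 2-fold change became 3918 with spike-in centring, 3850 with normexp, 17044 without filters, 12532 without the 1.5-fold filter, 12840 for probes above background on 5 or more arrays (more probes tested in the last 3) and 6629 to 7740 with single mice left out.

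For day 7 against day 1, the 311 calls became 158 with spike-in centring, 1213 with normexp, 695 with array weights, 61 with scan date as a random block, 519 with the liver covariate and 191 to 437 with single mice left out. For day 7 against day 3, the 0 calls became 237 with spike-in centring, 1 with dim spots missing, 4 with all groups, 390 with array weights and 0 to 95 with single mice left out. The 3 calls of neutrons against controls became 0 with centring on all probes, 102 on the 75th percentile, 1940 with spike-in centring, 63 with normexp, 309 without filters, 88 without the 1.5-fold filter, 5 for probes above background on 5 or more arrays, 120 with all groups, 428 with array weights, 0 with slide as a fixed block and 0 to 311 with single mice left out. The 435 calls of x-rays against controls became 696 with spike-in centring, 82 with normexp, 780 with all groups, 1088 with array weights, 254 and 750 with slide and scan date as random blocks and 261 to 508 with single mice left out. The causes were not tested.

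With the replicate number as a block, 0 genes were called (30 at p below 0.001, 66.7% of them higher after neutrons, and 1699 at p below 0.05), 255 for day 7 against day 1, 0 for neutrons and 252 for x-rays against controls. No mouse correlated best with its own number.

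Single genes whose difference turned with normexp alone were Blnk (-0.0913), Smad4 (0.0644), Fam122a (0.00952), Tnpo2 (0.76), Psrc1 (1.11), Zmat3 (0.38), Pou2af1 (-0.26), Cd160 (0.87), Gzma (-0.53), Ltf (0.90), Slc39a14 (0.72), Fanca (-0.025), Neil1 (-0.068), H2-Eb1 (-0.35), Cd14 (0.33), Cxcr5 (-0.39), Rpl14 (-0.76) and Myl2 (0.94), and for day 7 against day 1 Icam4 (0.15) and Sox6 (0.21). Where probes outside the filters entered, another probe stood for Smad4 (0.45) and Dclre1c (-0.23).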

Other observations

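Without x-ray mouse 5, Stfa3, a stefin of neutrophils, was called with a difference of 1.33 (limma adjusted p = 0.0491), while with all mice it was 1.05 ± 0.34 (SE) because mouse 5, at 3.13, lay within the neutron range of 2.81 to 3.34. Its list, of mature neutrophil receptors and alarmins, did not share that direction. Of 18 tested with all mice, 9 were above 0 and 9 below (median -0.06). Without mouse 5 the median was -0.175, with 2 members at an unadjusted p below 0.05 in each direction. Ifit1, an interferon-induced protein, was at 0.82 to 1.33 in x-ray mice 1 to 4 and at 0.22 in mouse 5, against -0.19 to 0.40 in the neutron mice. Its difference was -0.68 ± 0.22 (SE) with all mice and -0.85 without mouse 5, and it passed the threshold in neither. The interferon-stimulated genes as a list were divided. Of 31 tested with all mice, 13 were above 0 and 18 below. An unadjusted p below 0.05 was reached by 2 in the neutron direction and 3 in the x-ray direction.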
